A study of Mus musculus with 6 samples.

Results

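The Deltex, Mindbomb, Neuralized, Itch and Numb families hold ubiquitin ligases and an endocytic adaptor pair that act on Notch receptors and their ligands. They were read in RNA from the presomitic mesoderm level of mouse embryos with and without normal Dll3. Their members were taken as each non-control probe set of the MOE430A array that the platform annotation gives to exactly 1 of 10 genes, Dtx1, Dtx2, Dtx3, Dtx4, Mib1, Mib2, Neurl1a, Itch, Numb and Numbl. This gave 14 of the 22626 probe sets tested, for 9 of the 10 genes. Dtx4 was not analysed here. Neurl1a had 4 probe sets, Dtx2 and Numb had 2 each, and the other genes had 1 each.

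The tissue was tail tissue of embryos at 9.5 days post coitum, cut off behind the newest somite after remnants of the allantois had been removed. It held cells of all germ layers, so fewer cells of a type and less RNA per cell cannot be told apart. The wild-type group was 3 biological pools of C57BL/6 embryos with the genotype Dll3+/+. The mutant group was 3 biological pools of C57BL/6 embryos homozygous for the allele tm1Rbe of Dll3, also written Dll3neo/neo, which is carried in every cell of the embryo. The number of embryos per pool is not stated in the labels, and each pool was read on 1 array. A value of 1 is the median of that probe set across all 6 arrays. Values are therefore relative between pools within a probe set, with no level attached, so neither the identity of the tissue nor whether a gene was expressed could be checked from marker levels. Wild-type pool 3 stood apart: it held the highest or lowest of the 6 values in 63.5% of all probe sets, so members that move without it are given both ways.

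Notch signalling depends on ubiquitin and endocytosis on both sides of the contact between cells. In the cell that sends the signal, the Mindbomb and Neuralized ligases tag the ligand so that it is pulled in, and this pull opens the receptor to cleavage. In the receiving cell, Deltex proteins bind the receptor's ankyrin repeats and steer it through endosomes, while Itch and the adaptor Numb direct it to breakdown. In the presomitic mesoderm Dll1 activates Notch1 as part of the segmentation clock, and Mib1 is known to act on Dll1. Dll3 is a divergent ligand that is held largely inside the cell and does not activate the receptor.

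RefSeq promoter windows of build GRCm38.p6 were read for 6 of the 10 genes, 9 windows in all, and those of Mib1 were not read. Those of Dtx1 and Dtx2 are shown because Dtx1 is a known target of Notch in other tissues, so that their start regions can be read beside their values. Each line is the 250 bases before the annotated start, 5′ to 3′ on the gene's strand. Capitals mark TGGGAA, the core bound by the Notch effector RBPJ, and CACNAG, the N-box bound by Hes repressors, on either strand. No capitals overlap another motif.

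Dtx1, chr5:120711670-120711919, minus strand: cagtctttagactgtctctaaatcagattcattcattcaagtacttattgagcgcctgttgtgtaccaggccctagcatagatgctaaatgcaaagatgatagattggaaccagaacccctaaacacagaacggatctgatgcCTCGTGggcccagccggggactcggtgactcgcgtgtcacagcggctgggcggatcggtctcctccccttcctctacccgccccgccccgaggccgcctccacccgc

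Dtx2, chr5:135994550-135994799, plus strand: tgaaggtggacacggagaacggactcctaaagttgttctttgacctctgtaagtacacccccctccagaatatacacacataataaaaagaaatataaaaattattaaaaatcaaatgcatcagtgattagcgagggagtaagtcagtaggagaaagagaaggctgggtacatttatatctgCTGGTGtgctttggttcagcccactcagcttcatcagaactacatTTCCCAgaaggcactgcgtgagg

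The Dtx2 window held 1 match to the RBPJ core, read on the opposite strand with 17 bases between it and the start. Windows of the other 5 of these 6 genes held none. Of 32851 RefSeq windows of this length 21.6% held the RBPJ core and 36.7% held the N-box. The N-box occurred once in the window of Dtx1, once in that of Dtx2 and once in 1 of the 3 windows of Numb. These matches describe letters in a window, and neither binding nor activity was measured.

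No member passed the comparison of genotypes. In limma, with p adjusted by Benjamini-Hochberg across the whole set of 22626, 0 of 14 member probe sets had an adjusted p under 0.05, against 0.00442% of all probe sets, which is 1 probe set. That probe set reads Dll3, the mutated gene: its ratio was 1.463, 1.633 and 2.007 across wild-type pools 1 to 3 and 0.480, 0.476 and 0.537 across mutant pools 1 to 3. Dll3 fell by 1.76 on the log2 scale (SE 0.14, limma adjusted p = 0.00691), and the position of its probe set against the mutated stretch is unknown. At an unadjusted p under 0.05, limma called 1 of 14 member probe sets, that of Dtx3, and 1.16% of all probe sets. That share of all probe sets is smaller than this threshold gives when no probe set differs and p-values are spread evenly. Every member had a limma adjusted p of 0.9999, as had every probe set ranked by p between them, from 117 to 21740.

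The members' differences were small. By gene, over the mean of its probe sets, 4 of 9 were higher and 5 lower in the mutant by sign. By sign 6 of the 14 probe sets were higher and 8 lower in the mutant, with a median log2 difference of -0.01, beside 11120 higher, 11506 lower and a median of -0.00 over all probe sets. The sign of 5 of the 14 turned with quantile normalization and that of 7 with array weights, none of them among Dtx3, Mib1, Mib2 and Itch. The array weights stopped before they converged. They gave wild-type pool 2 a weight of 83.9 against at most 0.756 for the others, so their signs set the mutant pools against nearly 1 wild-type array. The median size of the difference, without its sign, was 0.051 for the members and 0.073 for all probe sets. For 10 of the 14 it was under 0.1, as for 63.6% of all probe sets. Single ratios ran from 0.749 to 1.240. The SD of the log2 ratio over the 6 pools had a median of 0.15 for the members and 0.16 for all probe sets, so the members varied between pools about as much as a typical probe set. The 95% interval of the difference (limma, not adjusted for many tests) contained 0 for 13 of 14 probe sets. Its lowest bound was -0.46, for Mib1, and its highest was 0.56, for Dtx3.

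**Figure D1:**
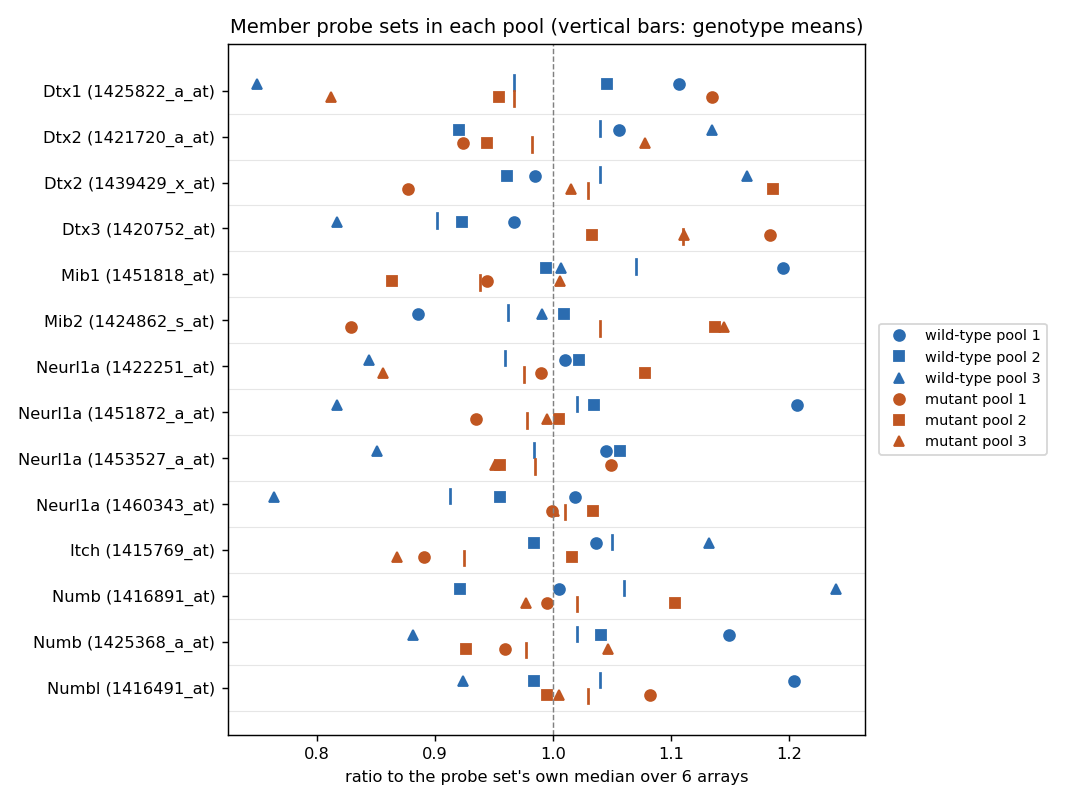
Ratio of each member probe set to its median across the 6 arrays (horizontal axis), for 3 wild-type pools (blue) and 3 mutant pools (orange); marker shapes give the pool number and short vertical bars the genotype means. The Dtx3 probe set is the one whose mutant values (1.033 to 1.184) all lie above its wild-type values (0.817 to 0.967); in the other 13 the genotypes overlap.

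**Figure D2:**
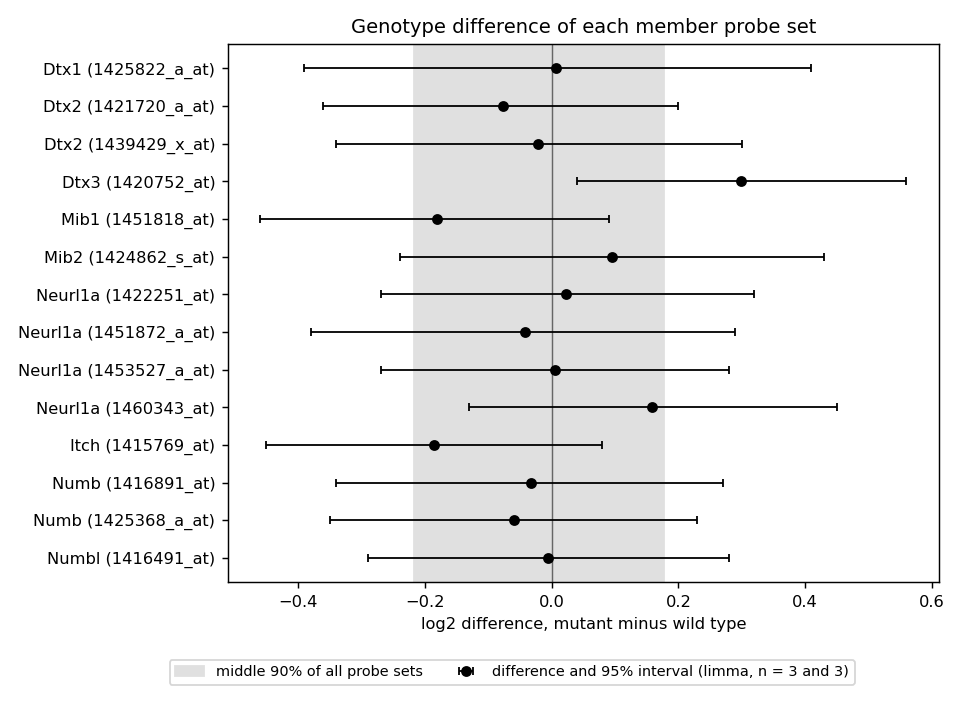
Log2 difference of mutant minus wild type for each member probe set (points) with its 95% limma interval (bars; 3 pools of each genotype, not adjusted), on a grey band for the middle 90% of all 22626 probe sets, from -0.22 to 0.18. Dtx3, at 0.30, is the point beyond the band, and 13 of the 14 intervals cross 0.

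The Deltex family was read by 4 probe sets for 3 genes. Dtx3 codes for a short Deltex protein that lacks the WWE domains by which Deltex proteins bind Notch. Its ratio was 0.967, 0.923 and 0.817 across wild-type pools 1 to 3 and 1.184, 1.033 and 1.111 across mutant pools 1 to 3, the order used for each gene below. All 3 mutant pools lay above all 3 wild-type pools. Dtx3 was the 1 member probe set of 14 without overlap between genotypes, where 5.03% of all probe sets had no overlap and 3.05% lay higher and 1.99% lower in the mutant. The wild-type mean was 0.902 ± 0.0771 and the mutant mean 1.11 ± 0.0755 (SD, n = 3 each), 1.23-fold higher. The log2 difference was 0.30 (SE 0.12, 95% interval 0.04 to 0.56, limma adjusted p = 0.9999 over all probe sets). It ranked 117 by p among all probe sets, and 2.59% of them differed by more. With 1 pool left out the log2 difference of Dtx3 stayed between 0.23 and 0.35. Its unadjusted p in limma was under 0.05 with all pools, and it was above 0.05 once wild-type pool 2 or 3 or mutant pool 1 or 3 was left out. Mutant pool 1, where Dtx3 was highest, was also the pool with high heart muscle markers. The 15 such markers had a median log2 ratio of 2.02 there and between -0.23 and 0.00 in the other 5 pools, and without that pool the Dtx3 difference was 0.25. Dtx1 was also highest in mutant pool 1, and Mib2 and the Dtx2 probe set 1439429_x_at were lowest there. Mutant pool 1 thus held the highest or lowest value in 4 of 14 member probe sets, and in 29.4% of all probe sets. A link of member values to these markers was not tested.

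Dtx1, which codes for the Deltex protein best known as a Notch target and regulator in lymphocytes, had ratios of 1.107, 1.046 and 0.749 for wild-type pools and 1.135, 0.954 and 0.812 for mutant pools. Pool 3 was the lowest of its genotype in both groups, and the genotype means were alike at 0.967 ± 0.192 and 0.967 ± 0.162 (SD, n = 3 each). The log2 difference was 0.007 (SE 0.18), with the widest interval of the members, -0.39 to 0.41, and it was -0.17 once wild-type pool 3 was left out. This interval leaves room for a change of up to about 1.32-fold upward, so a small difference was not detectable with 3 pools of each genotype. The spread of Dtx1 over the pools, an SD of 0.25 on the log2 scale, was above that of 85.6% of all probe sets.

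Dtx2, a broadly expressed Deltex gene, was read by 2 probe sets. The probe set 1421720_a_at gave 1.056, 0.920 and 1.135 (wild type) and 0.924, 0.944 and 1.078 (mutant). The probe set 1439429_x_at gave 0.985, 0.961 and 1.164 (wild type) and 0.877, 1.186 and 1.015 (mutant). Both were high in wild-type pool 3 and low in mutant pool 1, and they parted in mutant pool 2. Their log2 differences were -0.08 (95% interval -0.36 to 0.20) and -0.02 (-0.34 to 0.30), with overlapping genotypes in both. Leaving out wild-type pool 3 gave -0.01 and 0.07.

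Whether Dtx3 moved apart from the other Deltex genes was compared within pools, by the log2 ratio of one gene minus that of the other. Dtx3 minus Dtx1 averaged -0.08 ± 0.18 for wild-type pools and 0.21 ± 0.21 for mutant pools (SD, n = 3 each), a difference of 0.29 (two-sided exact permutation p = 0.30, adjusted 0.5 over 5 pairs). Dtx3 minus Dtx2 averaged -0.20 ± 0.26 and 0.15 ± 0.22, a difference of 0.35 (exact permutation p = 0.20, adjusted 0.5). With 3 against 3 pools the smallest p this test allows is 0.1, so it could not have passed 0.05. The values overlapped between genotypes for both pairs, so a change of Dtx3 apart from Dtx1 or Dtx2 was not shown. Dtx2 minus Dtx1 differed by -0.06 (exact permutation p = 1, adjusted 1).

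The Mindbomb genes code for the ligases that tag Delta and Jagged ligands. Mib1, which the mouse embryo needs for ligand activity, had ratios of 1.195, 0.994 and 1.007 for wild-type pools and 0.944, 0.864 and 1.006 for mutant pools. Mutant pools 1 and 2 were below every wild-type pool, and mutant pool 3 lay between wild-type pools 2 and 3. The log2 difference was -0.18 (SE 0.12, 95% interval -0.46 to 0.09), and leaving out wild-type pool 1 gave -0.10, leaving out mutant pool 3 gave -0.23 and leaving out wild-type pool 3 gave -0.22. Mib2, the paralog, had ratios of 0.886, 1.009 and 0.991 (wild type) and 0.829, 1.137 and 1.145 (mutant). Mutant pools 2 and 3 were above every wild-type pool and mutant pool 1 was below every one. The log2 difference of Mib2 was 0.09 (SE 0.15, 95% interval -0.24 to 0.43), 0.12 with wild-type pool 3 left out, and 0.25 without mutant pool 1.

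Mib1 and Mib2 thus had differences of opposite sign. Mib2 minus Mib1, within pools, was -0.43, 0.02 and -0.02 for wild-type pools and -0.19, 0.40 and 0.19 for mutant pools. The difference between genotypes was 0.28 (two-sided exact permutation p = 0.30, adjusted 0.5 over 5 pairs), and the values overlapped. As for the Deltex pairs, this test cannot give a p under 0.1, so it could not decide whether the Mindbomb paralogs diverged.

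Neurl1a, the mammalian relative of the fly ligase neuralized that tags Delta, was read by 4 probe sets. In wild-type pool 3 their ratios were 0.844, 0.817, 0.851 and 0.764 for 1422251_at, 1451872_a_at, 1453527_a_at and 1460343_at, and each was the lowest value of its probe set. The other wild-type values ran from 0.955 to 1.207 and the mutant values from 0.856 to 1.078. The probe sets therefore shared the low wild-type pool and did not share a genotype difference. Their log2 differences were 0.02, -0.04, 0.006 and 0.16 in the same order, and the mean over them was 0.04. The largest, that of 1460343_at (SE 0.13, 95% interval -0.13 to 0.45), became 0.04 when wild-type pool 3 was left out and 0.24 when wild-type pool 1 was. For 1451872_a_at the difference was -0.19 without wild-type pool 3, and for 1422251_at and 1453527_a_at it was then -0.07 and -0.10.

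**Figure D3:**
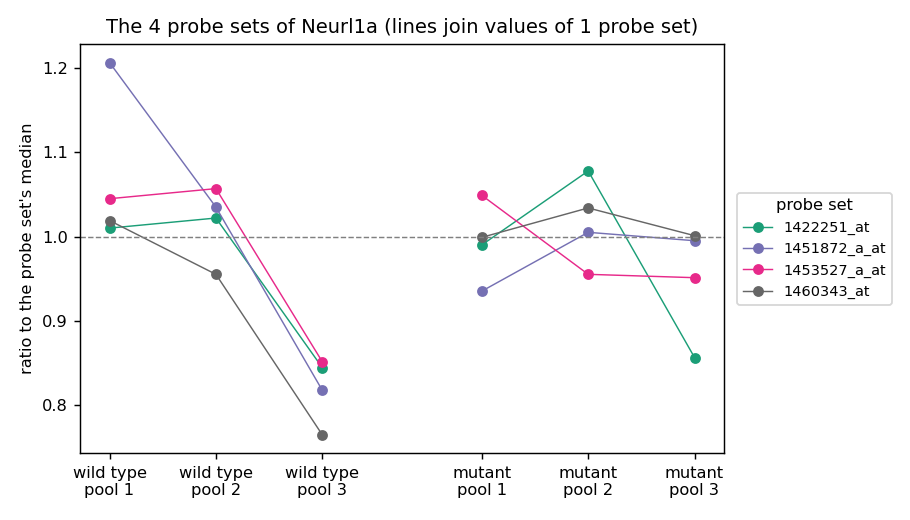
Ratio to the probe set's median (vertical axis) for the 4 Neurl1a probe sets in each of the 6 pools; colours are probe sets and lines join the pools of 1 genotype, with no order among pools. All 4 are lowest in wild-type pool 3 (0.764 to 0.851), and in the mutant pools they lie between 0.856 and 1.078.

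Itch codes for a HECT-type ubiquitin ligase of the Nedd4 family that acts on Notch among other substrates. Its ratio was 1.036, 0.984 and 1.132 for wild-type pools and 0.891, 1.016 and 0.868 for mutant pools. Mutant pools 1 and 3 were below every wild-type pool, and mutant pool 2 lay among them. The log2 difference was -0.18 (SE 0.12, 95% interval -0.45 to 0.08), that is a 1.14-fold lower mean without a call. It kept its sign with each pool left out, from -0.25 without mutant pool 2 to -0.13 without wild-type pool 3. Of all probe sets, 11.9% differed by more.

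The Numb family codes for adaptors with a phosphotyrosine-binding domain that link Notch to the clathrin adaptor AP-2 and to Itch. Numb was read by 2 probe sets. The probe set 1416891_at gave 1.005, 0.921 and 1.240 (wild type) and 0.995, 1.103 and 0.977 (mutant). The probe set 1425368_a_at gave 1.149, 1.041 and 0.881 (wild type) and 0.959, 0.926 and 1.047 (mutant). They ran against each other: wild-type pool 3 was the highest pool for the first and the lowest for the second. Their log2 differences were -0.03 (95% interval -0.34 to 0.27) and -0.06 (-0.35 to 0.23), and leaving out wild-type pool 3 gave 0.09 and -0.16. The values of 1 Numb probe set thus did not stand for the other across pools, and neither separated the genotypes.

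Numbl, the Numb paralog best known in neural progenitors, had ratios of 1.204, 0.984 and 0.924 (wild type) and 1.082, 0.995 and 1.005 (mutant). The mutant pools lay within the wild-type range. The log2 difference was -0.006 (SE 0.13, 95% interval -0.29 to 0.28). Leaving out wild-type pool 3 gave -0.08, and leaving out wild-type pool 1 gave 0.11. Numbl is the 1 member on chromosome 7 with Dll3, with 30 protein-coding genes between them in the RefSeq table of GRCm38.p6. Numb minus Numbl, within pools, differed between genotypes by -0.04 (exact permutation p = 1, adjusted 1 over 5 pairs). Neural progenitor and neuron markers, 14 of 14 measured, had pool medians between -0.02 and 0.04 on the log2 scale.

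Wild-type pool 3 held the highest or lowest of the 6 values in 11 of 14 member probe sets, beside 63.5% of all probe sets. Among the members it was 3 times the highest and 8 times the lowest. Wild-type pool 1 held an extreme in 4 members, and in 40.0% of all probe sets. Presomitic mesoderm markers, 8 of 10 measured and all 8 lower in the mutant by sign, had median log2 ratios of 0.18, 0.01 and 0.18 for wild-type pools 1 to 3 and -0.18, -0.27 and 0.02 for mutant pools 1 to 3. These 8 include Dll3 itself and Hes7 (-0.43), which is also a Notch target. In limma 3 of their 8 probe sets had an unadjusted p under 0.05, and 3 had no overlap between genotypes. Over all probe sets these shares were 1.16% and 5.03%. The other marker lists had pool medians between -0.32 and 0.09 for somite, -0.27 and 0.09 for gut endoderm, -0.02 and 0.06 for surface ectoderm, -0.10 and 0.34 for endothelium and -0.07 and 0.20 for blood. The part of tissue makeup in the members' values was not tested.

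Related ubiquitin ligases, deubiquitinases and adaptors outside the member families were lower by sign more often than higher. Of 37 such genes 25 were measured, 19 lower and 6 higher, with a median log2 difference of -0.07, beside 6338 higher, 6055 lower and a median of 0.00 over all 12393 genes with 1 symbol. In limma 0 of their 62 probe sets passed over all probe sets, 2 had an unadjusted p under 0.05 and 2 had no overlap between genotypes. Of all 20380 probe sets with 1 symbol, 1.21% had such a p and 5.0% had no overlap. The list's median log2 ratio was -0.01, -0.01 and 0.17 for wild-type pools 1 to 3 and -0.02, -0.02 and -0.01 for mutant pools 1 to 3. The high value was that of wild-type pool 3 alone, and without it the median difference was 0.000. Leaving out wild-type pool 1 gave -0.12, leaving out wild-type pool 2 gave -0.11, and leaving out mutant pool 2 gave -0.03.

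The lowest value of that list was that of Cbl, a RING ligase of receptor tyrosine kinase turnover. The mean of its 2 probe sets gave ratios of 1.162, 1.033 and 1.152 (wild type) and 0.782, 0.940 and 0.911 (mutant), without overlap. Its log2 differences were -0.39 (SE 0.13) and -0.31 (SE 0.18), each with a limma adjusted p of 0.9999. Usp12, a deubiquitinase that acts on Notch, came next at -0.32 over its 3 probe sets, with ratios of 1.012, 1.072 and 1.176 (wild type) and 0.989, 0.725 and 0.924 (mutant), also without overlap. Neither passed the test over all probe sets. Their overlap was judged on means over probe sets, while the share without overlap given above counts single probe sets. Ube2n (-0.14), a ubiquitin-conjugating enzyme, followed. The highest were Lnx1 (0.10), a ligase that acts on Numb, Neurl4 (0.08) and Ube2d1 (0.08).

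Genes of endocytosis and sorting were evenly divided, 26 higher and 25 lower among 51 measured of 53, with a median log2 difference of 0.01. In limma 0 of their 100 probe sets passed, 0 had an unadjusted p under 0.05, and 6 had no overlap between genotypes, a share near that of all probe sets. The value farthest from 0 was that of Ap2b1 (-0.38), a subunit of AP-2, which rested on mutant pool 2: its ratio was 0.423 there and between 0.940 and 1.135 in the other pools. Snx17 (-0.23) and Epn3 (-0.18), an epsin, also had overlapping genotypes. Rab5c (0.37), an early endosome GTPase, overlapped as well. Llgl2 (0.23), a polarity gene, had 0.986, 0.888 and 0.896 (wild type) and 1.014, 1.163 and 1.067 (mutant). Ap2a1 (0.21), the AP-2 subunit family that Numb binds, had 0.974, 0.921 and 0.870 (wild type) and 1.026, 1.062 and 1.108 (mutant). The genotypes did not overlap for Llgl2 or Ap2a1, and neither passed over all probe sets (limma adjusted p = 0.9999 each).

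Among the other Notch pathway components, 17 of 38 measured genes were higher and 21 lower, with a median log2 difference of -0.01. In limma, of their 64 probe sets 0 passed as higher and 1 as lower, that of Dll3, while 2 had an unadjusted p under 0.05 and 6 had no overlap between genotypes. Lfng (-0.27), the fringe glycosyltransferase of the clock, and Adam10 (-0.20), the protease that cleaves Notch after ligand binding, had the next lowest values. The ratio of Adam10 in mutant pool 2 was 0.702. Dlk1 (0.48), Spen (0.19) and Crebbp (0.17), a coactivator, had the highest values, and none of them passed. The genotypes did not overlap for Lfng, Dlk1 and Crebbp, and overlapped for Adam10 and Spen. The median over the Notch targets, 14 of 20 lower by sign, was -0.05. In limma 0 of their 33 probe sets passed, 3 had an unadjusted p under 0.05 and 4 had no overlap. Beside both lists, 1.21% of all probe sets with 1 symbol had such a p and 5.0% had no overlap. Lfng is in both lists. The medians of the Notch targets in the wild-type pools were -0.02, 0.05 and 0.18 and in the mutant pools -0.07, -0.09 and -0.05. The lowest were Nrarp (-0.63), Hes7 (-0.43) and Lfng, all without overlap, and the highest Id2 (0.09), Id3 (0.03) and Heyl (0.03).

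**Figure D4:**
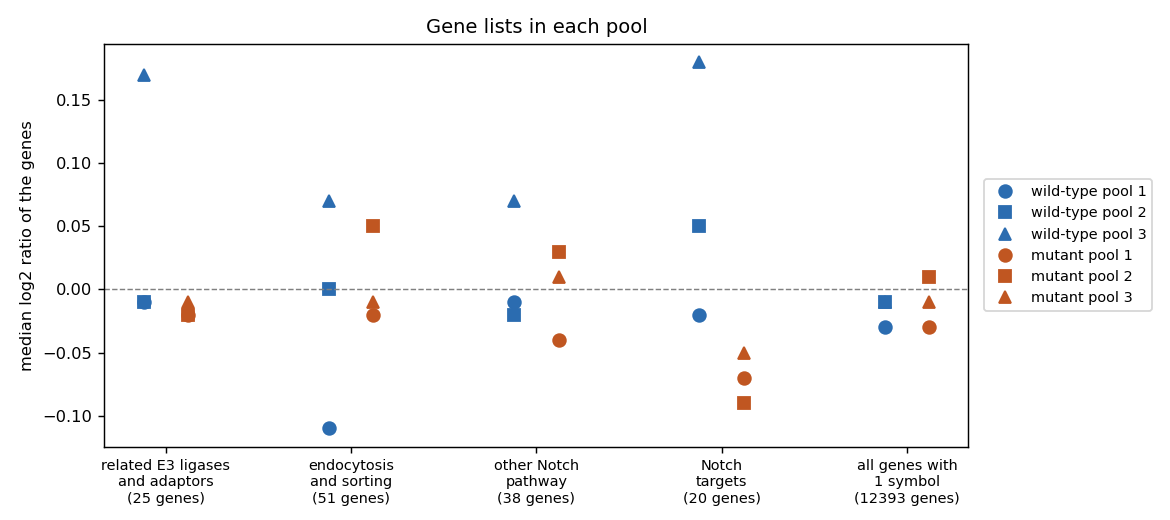
Median log2 ratio of the measured genes of each list (vertical axis) in the 3 wild-type pools (blue) and 3 mutant pools (orange), with all 12393 genes with 1 symbol at the right; shapes give the pool number. Wild-type pool 3 is the high point of the related ligases (0.17) and of the Notch targets (0.18), while for the Notch targets each mutant pool lies below each wild-type pool.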

How the data were processed

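RNA of 3 wild-type and 3 Dll3neo/neo pools was read on MOE430A arrays. The authors deposited linear ratios. Judged from the values, each probe set was scaled to a median of 1 across the 6 arrays, which held within 0.0011 for 92.8% of probe sets and for all 14 member probe sets. The submitters' processing notes list RMA and MAS5 and assign neither a step, so the background correction and the normalization between arrays are unknown. The array medians lay between 0.985 and 1.008. After 64 control probe sets were left out, log2 ratios of 22626 probe sets were compared by moderated linear models (limma 3.58.1, R 4.3.3; genotype only, two-sided). P-values were adjusted over all of them by Benjamini-Hochberg and called under 0.05. A difference is the mutant mean less the wild-type mean. A gene's value in a list is the mean of its probe sets. Overlap of a gene named from a list was judged on that value, while the shares without overlap count single probe sets. Of the probe sets, 20380 have 1 symbol, 691 several and 1555 none, and 20351 probe sets were matched by Entrez ID to RefSeq (GRCm38.p6). The test was checked on simulated data with independent noise, which lacks deviations that many probe sets of a pool share.

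Named are each member, Dll3, and in each list the 3 highest and 3 lowest genes. Members and lists were chosen with earlier results of these data known. The within-pool comparison of 5 pairs of related genes was added after the values were seen. The number of arrays limits the precision. Alternatives were an offset of 1, quantile normalization, median centring, leaving out probe sets with a median under 1, array weights, the replicate number as a block, the most specific probe set of a gene, and leaving out each pool. Figures used matplotlib 3.10.9 and Python 3.11.15.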

Additional observations from a re-analysis of the deposited data

How the results depend on the processing

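No member probe set passed in limma under any of the 12 alternatives to the fit. The count over all probe sets was 1, and it was 2 with quantile normalization, 4 with array weights and between 0 and 1 with 1 pool left out (0 without wild-type pool 2 or mutant pool 1, 2 or 3). Array weights stopped before they converged and gave wild-type pool 2 a weight of 83.9 against at most 0.756 for the others. The 1 member probe set without overlap between genotypes, that of Dtx3, became between 2 and 3 with 1 pool left out, which can only raise this count, while the share of all probe sets rose from 5.03% to between 10.6% and 18.0%. It was 1 with quantile normalization or centring. The number of genes higher in the mutant, 4 of 9, ran from 3 to 5. Medians with 1 pool left out ran from -0.120 to 0.000 for the related ligases, from -0.031 to 0.036 for endocytosis and sorting, from -0.036 to 0.012 for other Notch components and from -0.109 to -0.044 for Notch targets.

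The signs of Dtx3, Mib1, Mib2, Itch, the Neurl1a probe sets 1460343_at and 1451872_a_at and the Numb probe set 1425368_a_at did not change with quantile normalization or array weights. With quantile normalization the log2 difference was -0.053 for Dtx1, 0.046 for Dtx2 (1439429_x_at), -0.027 and -0.065 for Neurl1a (1422251_at and 1453527_a_at) and 0.048 for Numb (1416891_at). With array weights it was -0.136 for Dtx1, 0.088 and 0.110 for Dtx2, -0.062 and -0.110 for the same Neurl1a probe sets, 0.162 for Numb (1416891_at) and 0.053 for Numbl. The cause was not tested. With 1 pool left out the range was -0.168 to 0.126 for Dtx1, -0.131 to 0.087 for Dtx2 (1439429_x_at), -0.066 to 0.113, -0.193 to 0.089 and -0.095 to 0.061 for Neurl1a (1422251_at, 1451872_a_at and 1453527_a_at), -0.125 to 0.089 and -0.164 to 0.027 for Numb (1416891_at and 1425368_a_at) and -0.084 to 0.107 for Numbl.

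With the replicate number as a block, limma called 1 probe set of all and 0 members, as without it. Deviations of same-numbered pools correlated at 0.21, 0.02 and 0.17, and 4 of 6 pools correlated best with their own number. The main fit used genotype only, and whether same-numbered pools share a batch was not tested. The block raised the unadjusted calls from 262 to 434 over all probe sets, with 1 member in both.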
